A study of Homo sapiens with 12 samples.

Results

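Cytosolic ribosomal proteins are the protein parts of the large and the small subunit of the ribosome. Their genes were taken by name, as RPL or RPS followed by a number with at most a short ending, or as RPSA, RPLP0, RPLP1 or RPLP2. The names gave 82 genes of the 58233 in each deposited table, 50 of the large subunit and 32 of the small subunit. The name rule uses no measured value, but the family was chosen with earlier results of these data known. GENCODE 29 lists each of the 82 as a protein-coding gene. Of the 82, 80 passed the filter on low values in every comparison, while RPL10L and RPL3L did not.

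The cells were K562, a human chronic myeloid leukaemia line with erythroid features, grown in RPMI-1640 with 10% serum and antibiotics. The 5 groups were 3 clones in which the mutant ASXL1 allele was knocked out, 3 parental clones, 2 cell pools with a FOXK2 knockout, 2 with a FOXK1 knockout, and 2 with the control knockout named SCR. ASXL1 encodes a chromatin protein, and FOXK1 and FOXK2 encode forkhead transcription factors. A clone descends from a single cell and carries whatever that cell carried, and a pool mixes edited cells with any that escaped editing. The labels do not say whether clones or pools of a group were grown as separate cultures, so p-values here reflect how these libraries vary, which may be technical.

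A ribosomal subunit needs each of its proteins once, except for the stalk proteins RPLP1 and RPLP2, so the cell must keep many mRNAs at similar output. Many of these mRNAs begin with an unbroken run of pyrimidines, the TOP motif (terminal oligopyrimidine), through which mTOR and the RNA-binding protein LARP1 control their translation. In red cell precursors the family is known for Diamond-Blackfan anaemia, caused by loss of 1 copy of genes such as RPS19, RPL5, RPL11 or RPS26, and for RPS14, which is lost with the long arm of chromosome 5 in a myelodysplastic syndrome. RPL5 and RPL11 also form, with 5S ribosomal RNA, the particle that binds MDM2 when ribosome assembly fails.

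Levels are FPKM, fragments per kilobase of transcript scaled to the size of the library, as deposited. They behave as FPKM with 2 decimals multiplied by 1 factor for each library, from 0.95 to 1.04, and the sequencing depth cannot be read from them. Summed FPKM ran from 824692 to 975657 over the 12 libraries. The targeted transcripts followed their labels in part. ASXL1 was at 32.0, 26.9 and 29.2 FPKM in the mutant ASXL1 knockout clones, against 49.7, 58.5 and 39.8 FPKM in the parental clones (limma, log2 fold change -0.72, adjusted p = 0.0142). FOXK2 was at 25.5 and 27.5 FPKM in the FOXK2 pools, against 42.6 and 40.7 FPKM in the SCR pools (-0.64, adjusted p = 0.0445, called in 9 of 16 alternative settings). FOXK1 was at 5.59 and 6.07 FPKM in the FOXK1 pools, against 6.24 and 6.27 FPKM in the SCR pools (-0.09, adjusted p = 0.648), so its transcript does not check that label. All 12 K562 markers, which are erythroid genes with BCR and ABL1, were at 1 FPKM or more in each group. Of 12 markers of other cell types, 7 to 8 were below it, among them the B cell gene MS4A1 at 0 in all libraries. The other 4 to 5 reached 1 FPKM in each group, and the 12 summed to 260 to 335 FPKM per library.

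The starts of the genes were read first, because the TOP motif sits there. RefSeq promoters on GRCh38.p14 were at hand for 65 of the 82 genes, with 80 annotated starts. The windows printed here hold 15 bases before the start and 15 from it, 5′ to 3′ on the strand of the gene. Where a gene had more than 1 listed start (RPL11 with 2, RPL13 with 3), the start with the longest run is printed. Capitals mark the longest run of C and T that holds at least 1 base from 3 before the start to the fifth base after it. They show genes that were higher in mutant ASXL1 knockout clones (RPS27, RPS3A, RPL21), genes that were lower there (RPL11, RPSA, RPL28, RPL36AL, RPS27L), the near copy RPL36A, and RPS26 and RPL13, which moved most in the pools.
RPS27: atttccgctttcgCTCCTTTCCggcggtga
RPS3A: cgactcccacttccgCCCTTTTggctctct
RPL21: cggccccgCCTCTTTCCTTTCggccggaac
RPL11: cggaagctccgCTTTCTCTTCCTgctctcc
RPSA: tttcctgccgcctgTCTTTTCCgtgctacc
RPL28: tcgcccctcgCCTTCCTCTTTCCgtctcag
RPL36AL: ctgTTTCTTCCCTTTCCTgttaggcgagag
RPS27L: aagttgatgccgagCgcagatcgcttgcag
RPL36A: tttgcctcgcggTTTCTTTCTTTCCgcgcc
RPS26: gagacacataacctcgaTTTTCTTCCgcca
RPL13: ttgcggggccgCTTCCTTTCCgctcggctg

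On GRCh38.p14 these windows lie at chr1:153990747-153990776 (RPS27), chr4:151099613-151099642 (RPS3A), chr13:27251543-27251572 (RPL21), chr1:23691791-23691820 (RPL11), chr3:39406705-39406734 (RPSA), chr19:55385917-55385946 (RPL28), chrX:101390996-101391025 (RPL36A), chr12:56041903-56041932 (RPS26) and chr16:89560667-89560696 (RPL13) on the plus strand. RPL36AL at chr14:49620612-49620641 and RPS27L at chr15:63157463-63157492 lie on the minus strand. Each window crosses an annotated transcription start, so its second part is the first transcribed sequence from that start. The run is 1 base in RPS27L and 7 to 15 bases in the other printed windows.

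The pyrimidine run was common in this family. A run of at least 8 stood at 63.8% of the 80 starts of ribosomal protein genes and at 10.1% of all 35116 starts in the table. The median run was 10 bases in the family and 3 bases over all starts. RPS27L, with 1 pyrimidine at its start, differs in this from its namesake RPS27, with 9, whereas RPL36AL and RPL36A carried runs of 15 and 13. Of the 65 genes with a listed start, 16 had no run of 8 at any of them, among them RPL3 with 5, RPL4 with 1 and RPL6 with 5. The runs are those at annotated starts, and where transcription begins in these cells was not measured. The window of RPL4 holds a longer run of C and T farther from its listed start. A short run here therefore does not show that an mRNA lacks the TOP motif.

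Other motifs were searched in the same promoters, from 250 bases before to 50 bases after the start, on both strands. The forkhead motif GTAAACA was in 0% of the 80 member promoters and in 3.42% of all. The ETS factor motif ACCGGAAG was in 10.0% against 2.17%, and the YY1 motif AAGATGGC in 7.5% against 2.89%. The TATA box TATAAA was in 7.5% of member promoters and 11.5% of all promoters. A match describes these letters in this window and not binding of a factor, and no match says only that the letters are missing there.

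The members stood among the most abundant transcripts of the cells. Averaged over the 12 libraries, 77 of the 82 were at 500 FPKM or more. The median of the 48 detected large subunit genes was 2518 FPKM, and that of the 32 small subunit genes 2618 FPKM. The order was led by RPS27 at 7308 FPKM, RPS24 at 6586, RPL41 at 6419, RPS23 at 5498 and RPL4 at 5462. RPS27 and RPS23 are small subunit proteins, RPS24 is mutated in some families with Diamond-Blackfan anaemia, RPL41 encodes the shortest protein of the ribosome, and RPL4 lines the tunnel through which the new protein leaves. The ranges over the 12 libraries, 6594 to 7853 for RPS27, 6192 to 7086 for RPS24 and 5683 to 7001 for RPL41, overlapped, as did those of RPS23 (4991 to 5917) and RPL4 (5177 to 5684). Those 5 genes made 13.4% to 15.0% of the family's FPKM in each library.

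The lower end of the order was made of copies and of RPS26. RPS26, a protein at the mRNA exit channel of the small subunit, had the lowest mean of the 77 abundant genes, 702 FPKM. RPL36AL, RPS27L and RPL39L, extra copies of RPL36A, RPS27 and RPL39, stood at 179, 71.7 and 37.6 FPKM. Their namesakes stood at 3519, 7308 and 3906 FPKM. RPL3L, known from heart and skeletal muscle, reached at most 0.144 FPKM in a library, and RPL10L, known from testis, was listed at 0 in all 12. RPL3 and RPL10, their namesakes, stood at 2880 and 5446 FPKM.

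**Figure D1:**
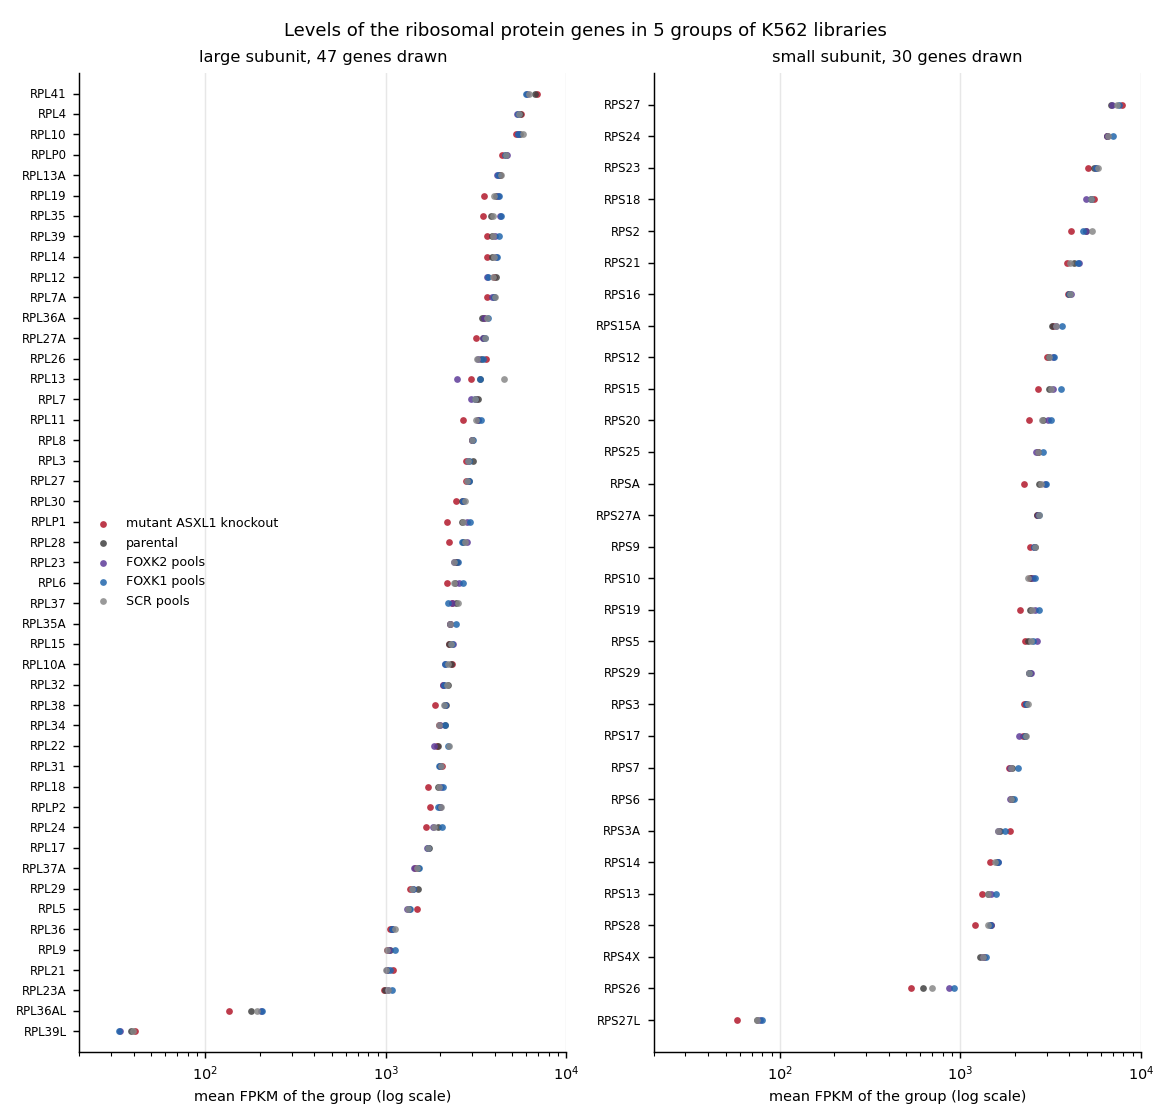
Mean FPKM of each group (points, log axis) for 47 large subunit and 30 small subunit genes at 1 FPKM or more, ordered by their mean over 12 libraries. The groups lie close together for most genes; RPL36AL, RPS27L and RPL39L, at 179, 71.7 and 37.6 FPKM, lie below all others, and RPL13 and RPS26 spread widest.

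Several levels are uncertain because the family has many processed copies. The tables list 1135 pseudogenes named after 76 of the members, and together they held 2.66% to 3.36% of the members' FPKM per library. For RPL23A the copies held 75.05% of the joint level of gene and copies, for RPS28 49.1%, for RPL9 42.0%, for RPL21 17.6%, for RPL22 9.05% and for RPSA 7.16%. For these 6 genes the split of reads between gene and copies could move the level. Transcripts that run through into a neighbour (RPL17-C18orf32, RPL36A-HNRNPH2, RPS10-NUDT3) and the antisense RPL34-AS1 stayed at or below 14.9 FPKM.

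As a whole, with values as deposited, the family was lower in summed FPKM in the mutant ASXL1 knockout clones and yet a larger share of all FPKM. The 82 genes summed to 214162, 212593 and 216637 FPKM in the mutant ASXL1 knockout clones, against 225866, 225311 and 225541 FPKM in the parental clones. As a share of all FPKM this was 25.8%, 25.3% and 26.3% in mutant ASXL1 knockout clones, against 25.1%, 24.5% and 23.5% in parental clones. With values as deposited, the sums and the shares both separate the groups, and they do so in opposite directions. The sums carry the library factor, 0.95 to 0.957 in mutant ASXL1 knockout clones and 0.992 to 1.03 in parental clones. With that factor divided out, the sums of the groups overlap, and the shares do not depend on it. In bulk RNA such as this, fewer cells of a type and less RNA per cell cannot be told apart. Transcripts of the mitochondrial genome made 10.7% to 11.04% of FPKM in the mutant ASXL1 knockout clones, against 13.3% to 15.05% across the parental ones. Of the FPKM outside the mitochondrial genome, the family made 28.9% ± 0.465 in mutant ASXL1 knockout clones and 28.3% ± 0.681 in parental clones (SD, n = 3 each), and these overlapped. In the pools the share was 23.4% and 24.1% with the FOXK2 knockout, 23.9% and 23.9% with the FOXK1 knockout, and 24.3% and 24.5% with SCR.

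The balance of the 2 subunits was stable in the clones. The ratio of large to small subunit FPKM was 1.38 ± 0.0127 in the mutant ASXL1 knockout clones and 1.39 ± 0.0103 in the parental clones (SD, n = 3 each). In the pools it was 1.35 and 1.34 with the FOXK2 knockout, 1.35 and 1.32 with the FOXK1 knockout, and 1.38 and 1.38 with SCR. The FOXK2 and FOXK1 pools thus lay below the SCR pools. RPL13, whose replicates differ more than those of any other member in 4 of the 5 groups, bears on this. Without RPL13 the FOXK2 pools were at 1.33 and 1.31, the FOXK1 pools at 1.303 and 1.298, and the SCR pools at 1.34 and 1.32, so that the FOXK2 and the SCR pools overlapped.

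**Figure D2:**
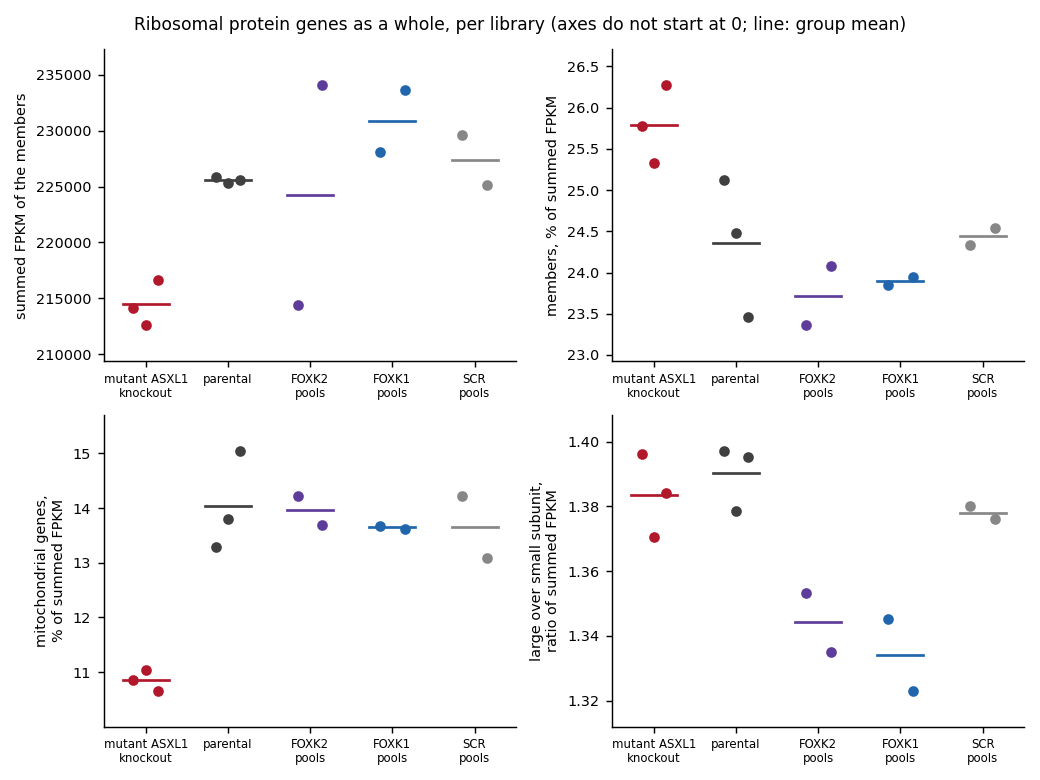
Per library, the summed FPKM of the 82 genes, their share of all FPKM, the share of mitochondrial genes and the ratio of large to small subunit FPKM (points; line, group mean; axes do not start at 0). Mutant ASXL1 knockout clones lie lowest in mitochondrial share, from 10.7% to 11.04%, and FOXK2 and FOXK1 pools lie below SCR pools in the subunit ratio.

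The mutant ASXL1 knockout clones were compared with the parental clones to ask which transcripts depend on the mutant allele. Of the 80 members tested, 23 were lower in mutant ASXL1 knockout clones (13 of 48 large and 10 of 32 small subunit genes) and 4 were higher, the large subunit genes RPL5 and RPL21 and the small subunit genes RPS27 and RPS3A. Among them RPL36AL, RPS27L and RPL11 fell by 18.4% to 24.8%, and the 4 rises were 8.76% to 14.2%. A change was called where limma's Benjamini-Hochberg adjusted p over all genes tested was under 0.05 on log2(FPKM + 1). Over all 13597 genes tested, 22.4% were called, 14.4% lower and 7.91% higher, while of the members 28.7% were called lower and 5.0% higher. The median log2 fold change of the members was -0.07, beside -0.06 for all genes tested. The groups did not overlap in 39 members lower and 4 higher, beside 26.6% and 16.3% of all genes tested. Without mutant ASXL1 knockout clone 1 or 3, or without parental clone 2, 12 members were called lower and 1 higher. Of all genes tested, 868, 849 and 946 were then called lower, beside 1964 with every clone. In either direction 1315, 1287 and 1445 of all genes were called, beside 3039 with every clone. Other genes as abundant as the family, at 500 FPKM or more, had 51 of 120 called lower and 4 called higher, with a median of -0.17.

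**Figure D3:**
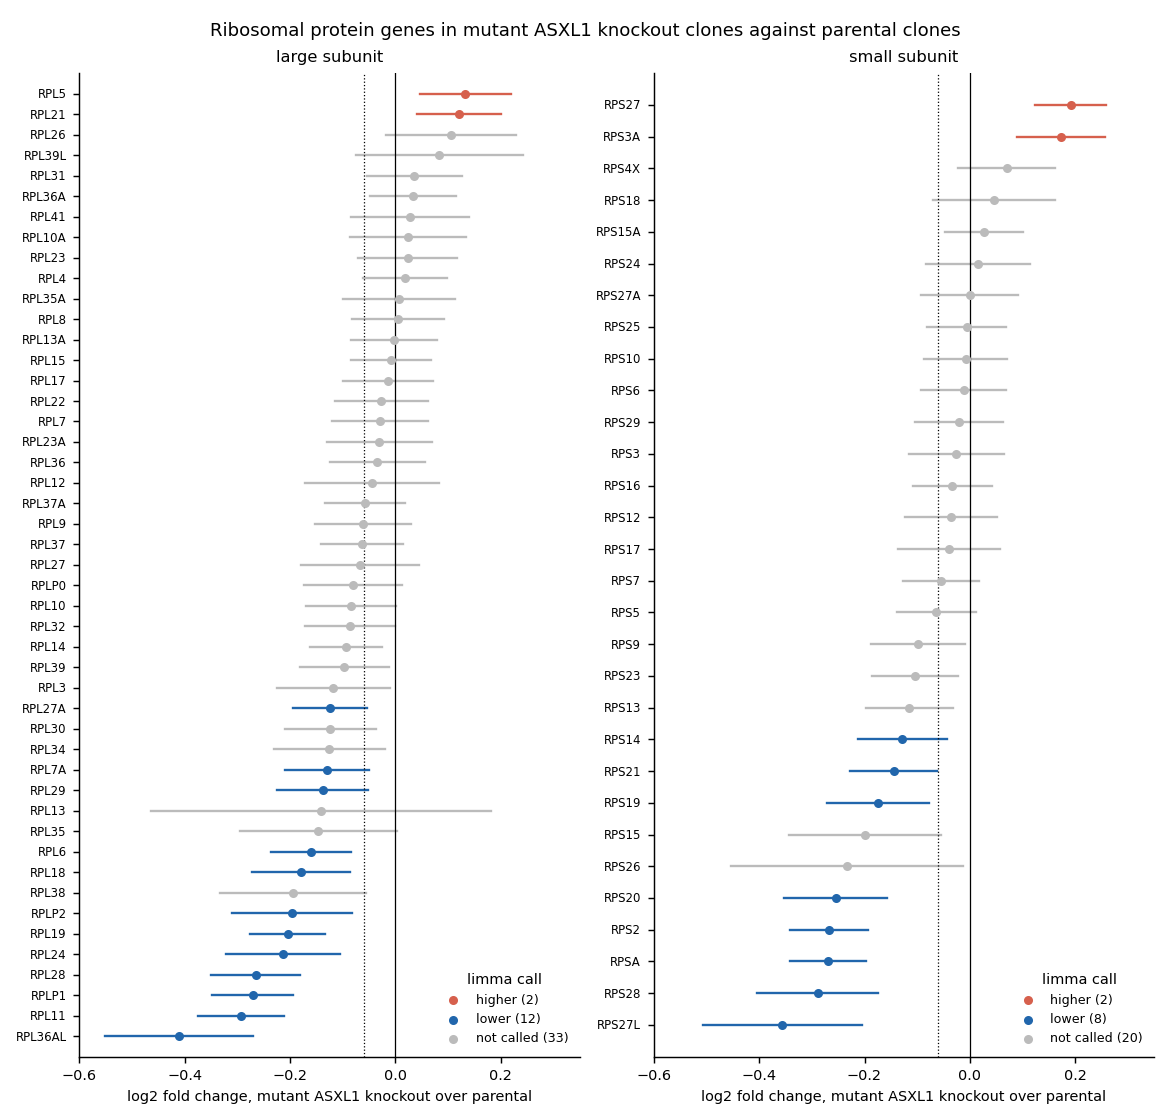
Log2 fold change of FPKM + 1, mutant ASXL1 knockout over parental clones, for 47 large and 30 small subunit genes (point, estimate; bar, 95% interval; dotted line, median of all genes tested). The changes run from -0.41 for RPL36AL to 0.19 for RPS27, and 59 of the 77 drawn lie below 0.

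RPL11, the partner of RPL5 in the 5S particle, stood at 2593, 2648 and 2731 FPKM in mutant ASXL1 knockout clones, against 3203, 3289 and 3278 FPKM in parental clones. RPL11 was lower in all 3 (log2 fold change -0.29, SE 0.03, limma adjusted p = 0.00326). RPL5 stood at 1466, 1453 and 1518 FPKM in mutant ASXL1 knockout clones, against 1337, 1327 and 1383 FPKM in parental clones. The partners of this particle thus moved in opposite directions, with RPL5 higher (0.13, SE 0.04, limma adjusted p = 0.0423). The call of RPL5 was lost in 8 of 17 alternatives, with limma adjusted p up to 0.162, among them leaving out any clone other than parental clone 3 (adjusted p = 0.0688 to 0.151). RPL11 lost its call in 1, scaling libraries to equal sums (adjusted p = 0.0518). The authors' deposited table gives RPL11 -0.24 with an adjusted p of 0.00115 and RPL5 0.19 with an adjusted p of 0.00998.

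Of the small subunit genes, RPSA, a protein first described as a laminin receptor, stood at 2229, 2271 and 2267 FPKM in mutant ASXL1 knockout clones, against 2694, 2739 and 2721 FPKM in parental clones. RPSA was lower in each clone (log2 fold change -0.27, SE 0.03, limma adjusted p = 0.0029), with 7.16% of its joint level in pseudogenes. RPS2, at the mRNA entry channel, was at 4115 ± 72.6 FPKM in mutant ASXL1 knockout clones and 4954 ± 43.1 in parental clones (-0.27, limma adjusted p = 0.00308). RPS20 and RPS28 had log2 fold changes of -0.25 and -0.29 (limma adjusted p = 0.00823 and 0.00893). RPS28 may share reads with its copies, and with the copies summed in it was at -0.20 and no longer called (adjusted p = 0.0814). RPS19, RPS21 and RPS14 were called lower with smaller changes, of -0.17, -0.14 and -0.13. RPS19 lost its call in 12 of the 17 alternatives, RPS21 in 12 and RPS14 in 13, and RPS21 (0.01) and RPS14 (0.03) changed sign with libraries scaled to equal sums.

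Among the large subunit genes, the stalk proteins RPLP1 and RPLP2 were both lower. This stalk recruits the translation factors that split GTP. RPLP1 stood at 2184, 2215 and 2137 FPKM in mutant ASXL1 knockout clones, against 2627, 2601 and 2660 FPKM in parental clones (log2 fold change -0.27, SE 0.03, limma adjusted p = 0.00328). RPLP2 was at 1745 ± 32.7 FPKM in mutant ASXL1 knockout clones and 2001 ± 113 in parental clones (-0.20, limma adjusted p = 0.0299), and RPLP0, which anchors them, was not called (-0.08, adjusted p = 0.185). RPL28 was at 2227 ± 63.7 FPKM in mutant ASXL1 knockout clones and 2676 ± 37.2 in parental clones (-0.27, adjusted p = 0.00452). The authors' deposited table gives RPL28 -0.10 with an adjusted p of 0.201, which is not a call. RPL19 and RPL6 had log2 fold changes of -0.20 and -0.16 (adjusted p = 0.00576 and 0.0158). RPL24, RPL18, RPL29, RPL7A and RPL27A were also called lower, with log2 fold changes of -0.21, -0.18, -0.14, -0.13 and -0.12. RPL29, RPL7A and RPL27A changed sign with libraries scaled to equal sums, and each of the 3 lost its call in 12 of the 17 alternatives. RPLP2, RPL6, RPL24 and RPL18 each lost theirs in 9, among them leaving out mutant ASXL1 knockout clone 1 or 3 or parental clone 2. Over all 17 alternatives their limma adjusted p reached 0.491, 0.946, 0.297 and 0.653.

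Of the extra copies, RPL36AL and RPS27L were called lower and RPL39L was not, and copies were not tested against their namesakes. The gene of RPL36AL (ENSG00000165502) lies at chr14:49618519-49620685 on the minus strand in GENCODE 29 (GRCh38). RPL36AL stood at 139, 141 and 125 FPKM in mutant ASXL1 knockout clones, against 176, 177 and 185 FPKM in parental clones, the largest fall of the family (log2 fold change -0.41, SE 0.06, limma adjusted p = 0.00564). RPL36A was at 3491 ± 102 FPKM in mutant ASXL1 knockout clones and 3411 ± 24.3 in parental clones (0.03, adjusted p = 0.528). RPS27L, known as a target of p53 in cells that have it, stood at 54.6, 60.8 and 58.6 FPKM in mutant ASXL1 knockout clones, against 70.4, 75.1 and 78.0 FPKM in parental clones. RPS27L was lower (-0.36, SE 0.06, adjusted p = 0.0109), while RPS27 was higher. RPL39L was at 40.9 ± 2.67 FPKM in mutant ASXL1 knockout clones and 38.5 ± 1.45 in parental clones, which was not called (0.08, adjusted p = 0.405). RPL39 was at 3625 ± 86.3 FPKM in mutant ASXL1 knockout clones and 3878 ± 88.8 in parental clones, and was not called either (-0.10, adjusted p = 0.0927). RPL36AL and RPS27L kept their calls under each of the 17 alternatives.

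RPS27 stood at 7757, 7853 and 7851 FPKM in mutant ASXL1 knockout clones, against 6847, 6872 and 6833 FPKM in parental clones. It was the most abundant member and its groups lie apart (log2 fold change 0.19, SE 0.03, limma adjusted p = 0.00623). RPS3A, which forms part of the platform of the small subunit, stood at 1876, 1864 and 1894 FPKM in mutant ASXL1 knockout clones, against 1708, 1675 and 1616 FPKM in parental clones. RPS3A was higher in each clone (0.17, SE 0.04, adjusted p = 0.0166). RPL21 was at 1100 ± 12.2 FPKM in mutant ASXL1 knockout clones and 1012 ± 17.5 in parental clones (0.12, SE 0.03, adjusted p = 0.0431), and its call was lost in 9 of the 17 alternatives, among them with its pseudogenes summed in (adjusted p = 0.218) and without any clone other than parental clone 3. The call of RPS3A was lost in 6, 3 of them leaving out mutant ASXL1 knockout clone 1 or 3 or parental clone 2 (adjusted p = 0.0639 to 0.069), and that of RPS27 in 2. The authors' deposited table calls 10 members lower and 3 higher in this comparison, beside 16.7% and 16.3% of all genes tested. Each of those 13 has the same direction among the calls made here. The other members called here are not called there, among them RPL28, RPL6 (-0.10, authors' adjusted p = 0.205), RPS28 (-0.14, 0.0809) and RPL21 (0.15, 0.0618).

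The scale of the libraries decides how these changes read. The factor in the deposited values is 0.95 to 0.957 for the mutant ASXL1 knockout clones and 0.992 to 1.03 for the parental clones. With the library factor removed, 12 members were called lower and 5 higher, and the medians of members and of all genes tested were 0.02 and 0.01. With median-ratio scaling 13 were lower and 4 higher, and with upper-quartile scaling 16 and 4. With every library scaled to the same sum the median of all genes was 0.08, against -0.06 as deposited, and 3 members were lower and 20 higher, with a member median of 0.09. Of all genes called, 64.6% were lower with values as deposited, 43.6% with the library factor removed, 49.0% with median-ratio scaling, 55.0% with upper-quartile scaling and 26.5% with equal sums. RPL36AL and RPS27L were called lower under each of these 5 scalings. The median of the members differed from the median of all genes by 0.0127 or less in each of the 5 scalings.

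**Figure D4:**
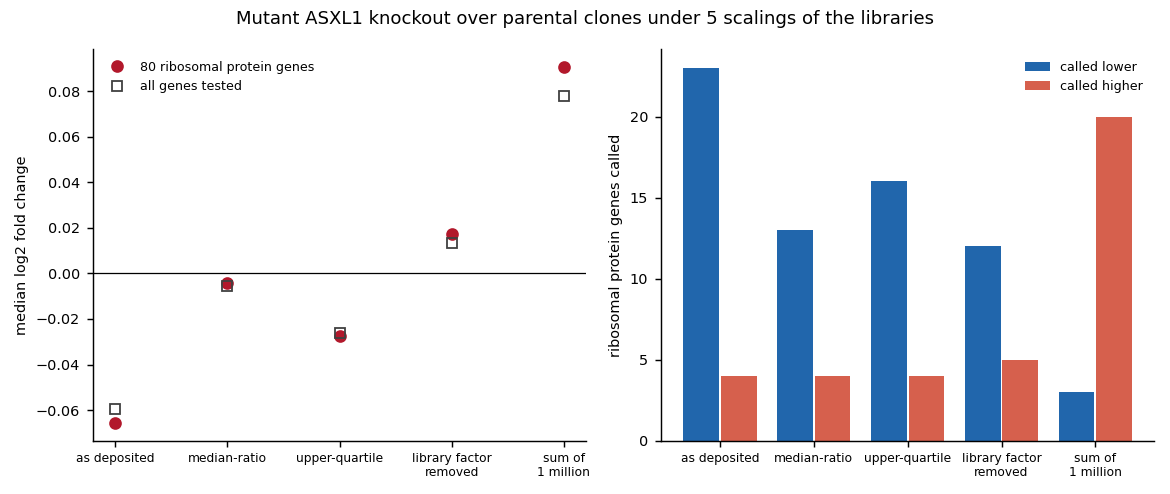
Left, median log2 fold change of the 80 ribosomal protein genes (filled) and of all genes tested (open) under 5 scalings, mutant ASXL1 knockout over parental clones. Right, members called lower and higher: 23 and 4 with values as deposited, 3 and 20 with each library scaled to the same sum.

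Genes around the family were read from lists written for this comparison. Over all genes tested in it, 14.4% were called lower and 7.91% higher, and the counts of each list stand beside these shares. Of 20 genes tied to Diamond-Blackfan anaemia or the 5q syndrome, all members of the family, 5 were lower (RPL11, RPL18, RPS14, RPS19, RPS28) and 2 higher (RPL5, RPS27), with a median of -0.03. Over all 80 members tested, 28.7% were called lower and 5% higher, so the share called lower is not particular to these genes. FAU, a fusion gene that makes a small subunit protein the names do not catch, was not called (log2 fold change -0.08, limma adjusted p = 0.262). The copies RPL22L1 and RPL7L1 were higher, RPL22L1 at 155 ± 13.1 FPKM in mutant ASXL1 knockout clones and 119 ± 6.41 in parental clones (0.37, adjusted p = 0.0153). Their namesakes RPL22 (-0.03) and RPL7 (-0.03) were not called.

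Of 21 other TOP mRNAs, 4 were lower (among them PABPC1, NPM1 and BTF3) and 3 higher (EIF4B, EEF1G, EIF3E), with a median of 0.03, and BTF3 was at 0.02 with equal sums. Of those calls NPM1 kept its own in 4 of the 17 alternatives (limma adjusted p up to 0.666), BTF3 in 5, EEF1G and EIF3E in 12 each, and PABPC1 in 16. EIF4B, an initiation factor, was at 405 ± 25.9 FPKM in mutant ASXL1 knockout clones and 276 ± 20.1 in parental clones (log2 fold change 0.55, limma adjusted p = 0.00397). PABPC1, the main poly(A)-binding protein, had -0.25 (adjusted p = 0.00871). Of 22 regulators of these mRNAs, 3 were lower and 2 higher, close to the 14.4% and 7.91% of all genes tested. MTOR, the kinase that controls their translation, was at 23.1 ± 0.875 FPKM in mutant ASXL1 knockout clones and 30.3 ± 0.318 in parental clones (-0.38, adjusted p = 0.00668), and MYC, which drives ribosome production, was at 301 ± 3.74 FPKM in mutant ASXL1 knockout clones and 241 ± 14.1 in parental clones (0.32, adjusted p = 0.00817). MDM2, which the RPL5 and RPL11 particle binds, was higher (0.43, adjusted p = 0.0218). EIF4B, MTOR and MYC kept their calls in each of the 17 alternatives, and MDM2 in 12. Of 29 assembly factors and chaperones, 6 were higher and 4 lower, beside 7.91% and 14.4% of all genes tested. LSG1, which frees large subunits of NMD3, had the smallest adjusted p among them and was higher (0.38, adjusted p = 0.00817).

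Markers of the cells moved with these groups too. Of the 12 K562 markers, the erythroid genes GATA1, KLF1 and EPOR were lower in mutant ASXL1 knockout clones (log2 fold change -0.44, -0.41 and -0.58, limma adjusted p = 0.00606, 0.00967 and 0.0105). BCR, on the list but not an erythroid gene, was higher (0.58, limma adjusted p = 0.00133). ABL1, likewise not an erythroid gene, was called higher too (0.16, limma adjusted p = 0.0435), but in 9 of the 17 alternatives only, while the other named markers here kept their calls in all 17. The summed level of the 12 was 10055 to 14394 FPKM in mutant ASXL1 knockout clones and 11762 to 21393 in parental clones. Of 12 markers of other cell types, EPCAM was higher (0.37, adjusted p = 0.0115), 1 was at 0 in both groups, and their sum was 325 to 335 FPKM in mutant ASXL1 knockout clones and 291 to 304 in parental clones. The part of these markers, and of the mitochondrial share, in the changes of the family was not tested.

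The FOXK2 and FOXK1 pools were each compared with the SCR pools to ask which transcripts depend on the 2 forkhead factors. The comparisons share their SCR pools, so their values are set side by side only. RPS26 was the 1 member called in any comparison of pools with values as deposited. Its gene (ENSG00000197728) lies at chr12:56041351-56044697 on the plus strand in GENCODE 29. It stood at 847 and 879 FPKM in FOXK2 pools and at 919 and 932 FPKM in FOXK1 pools, against 707 and 689 FPKM in SCR pools. All 4 knockout pools lie above both SCR pools. The rise in FOXK1 pools passed (log2 fold change 0.41, SE 0.04, limma adjusted p = 0.0265), and that in FOXK2 pools did not (0.31, SE 0.05, adjusted p = 0.083). In FOXK2 pools RPS26 was called higher in 5 of 16 alternatives, with limma adjusted p down to 0.0341. Its log2 fold change there ran from 0.28 to 0.33 over the 16. The call in FOXK1 pools was lost in 8 of 17 alternatives, with log2 fold changes from 0.35 to 0.42 over the 17. It was lost with no filter, no variance trend, either replicate block and with a pool left out. Leaving out a pool leaves 1 pool in a group, so those fits cannot decide whether a call of RPS26 holds. The authors' deposited table gives RPS26 0.34 with an adjusted p of 3.45e-08 in FOXK1 pools and 0.27 with 2.39e-04 in FOXK2 pools.

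In FOXK2 pools against SCR pools, limma called 0 members lower and 0 higher, beside 1.02% of all genes tested, 0.87% lower and 0.146% higher. At an unadjusted p under 0.05 there were 3 lower and 1 higher of the 80, beside 10.5% and 10.2% of all genes tested. The authors' deposited table calls 2 lower and 1 higher, beside 10.9% and 6.84% of the same genes. The groups did not overlap in 10 members lower and 10 higher, beside 24.8% and 29.2% of all genes. The median log2 fold change was 0.0023, beside 0.01 for all genes, and it was 0.05 without FOXK2 pool 1, -0.06 without FOXK2 pool 2, 0.03 without SCR pool 1 and -0.02 without SCR pool 2. RPL13, a large subunit protein, had the largest change and the largest spread. It stood at 2042 and 2885 FPKM in FOXK2 pools, against 3796 and 5215 FPKM in SCR pools (-0.87, SE 0.23, limma adjusted p = 0.154; -1.02 with an adjusted p of 7.94e-08 in the authors' deposited table). RPL22 stood at 1838 and 1876 FPKM in FOXK2 pools, against 2289 and 2171 FPKM in SCR pools (-0.26, SE 0.05, limma adjusted p = 0.116; -0.08 with 0.405 in the authors' deposited table). RPL22, a large subunit protein that is dispensable for translation in mice, is 1 of the genes with many copies.

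In FOXK1 pools against SCR pools, limma called 0 members lower and 1 higher, beside 1.83% of all genes tested, 1.15% lower and 0.679% higher. At an unadjusted p under 0.05 there were 2 lower (RPL37, RPL39L) and 12 higher of the 80, beside 9.83% and 13% of all genes tested. The authors' deposited table calls 4 lower and 1 higher, beside 10.5% and 9.26% of the same genes. The groups did not overlap in 11 members lower and 32 higher, beside 23.6% and 31.3% of all genes tested. The median was 0.04, beside 0.02 for all genes, and it was -0.02 with each library scaled to the same sum. It was 0.06 without FOXK1 pool 1, 0.0084 without FOXK1 pool 2, 0.06 without SCR pool 1 and 0.02 without SCR pool 2, beside 0.02, 0.02, 0.03 and 0.02 for all genes. Of all genes called here, 62.8% were lower with values as deposited and 72.9% with equal sums. RPL37 stood at 2146 and 2263 FPKM in FOXK1 pools, against 2493 and 2530 FPKM in SCR pools (-0.19, SE 0.04, limma adjusted p = 0.108). RPL39L stood at 32.1 and 34.3 FPKM in FOXK1 pools and 31.1 and 35.8 in FOXK2 pools, against 40.6 and 39.0 FPKM in SCR pools (-0.26 and -0.25, adjusted p = 0.117 and 0.220). RPL13 stood at 4082 and 2518 FPKM in FOXK1 pools, a gap of the same order as those between groups.

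**Figure D5:**
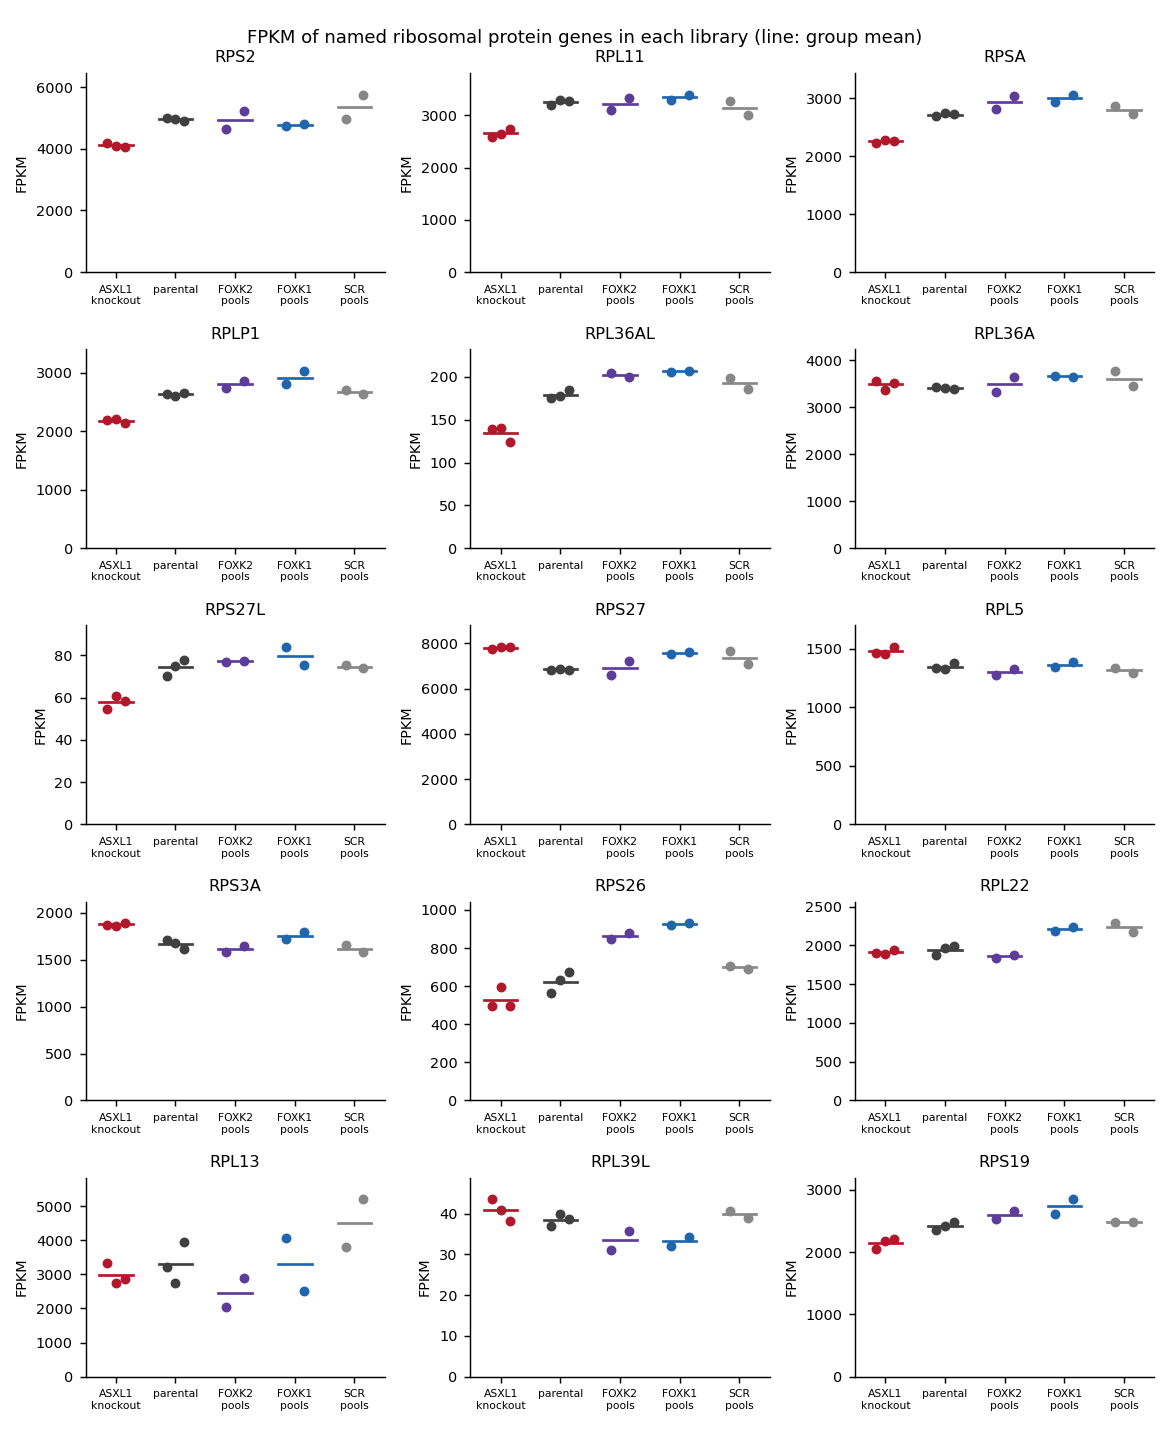
FPKM of 15 ribosomal protein genes in each library (points; line, group mean), with the mutant ASXL1 knockout labelled ASXL1 knockout. RPS2, RPL11, RPSA, RPLP1, RPL36AL and RPS27L are lowest in the mutant ASXL1 knockout clones, RPS26 is highest in the FOXK pools, and RPL13 scatters within groups.

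FOXK2 pools and FOXK1 pools were set against each other in a joint fit of the 6 pools. limma called 0 members lower and 0 higher, beside 0.0356% of all genes tested, 0.0285% lower and 0.00711% higher. At an unadjusted p under 0.05 there were 2 lower, RPL22 and RPL24, and 0 higher, beside 3.66% and 2.76% of all genes tested. The authors' deposited tables were not used here, since they set each pool against SCR. The median of the members was -0.03, beside -0.02 for all genes, and it was 0.02 without FOXK2 pool 1, -0.09 without FOXK2 pool 2, -0.06 without FOXK1 pool 1 and -0.0041 without FOXK1 pool 2. The groups did not overlap in 21 members, each lower in FOXK2 pools, beside 21.3% of all genes lower and 15.5% higher. RPL22 was at 1857 ± 26.4 FPKM in FOXK2 pools and 2215 ± 36.2 in FOXK1 pools (log2 fold change -0.25, SE 0.05, limma adjusted p = 0.556). The 95% interval of the difference lay within 0.5 on the log2 scale, up or down, for 79 of the 80 members here and in FOXK2 against SCR pools, RPL13 being the exception, and for 78 in FOXK1 against SCR pools. A missed threshold does not show that levels were alike, and with 2 pools each the median SE was 0.06 in both comparisons of the FOXK2 pools.

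The members called in the clones were then read in the pools, which share no library with them. Of the 23 members lower in mutant ASXL1 knockout clones, 18 had a log2 fold change above 0 in FOXK2 pools and 18 in FOXK1 pools, from -0.12 and -0.17 for RPS2 up to 0.17 for RPS21 and 0.16 for RPS20. Of all 80 members 41 and 51 were above 0 in the same comparisons. These are values as deposited, and they move with the scaling. The 4 genes higher in the clones had log2 fold changes from -0.10 (RPS27) to 0.02 (RPL21) in FOXK2 pools and from 0.04 (RPS27) to 0.12 (RPS3A) in FOXK1 pools. Around the family, VIM, a TOP mRNA for an intermediate filament protein, was lower in FOXK2 pools and in FOXK1 pools (-0.95 and -0.78, limma adjusted p = 0.0257 and 0.0446). CNBP, whose protein was found to bind TOP mRNAs in frogs, and the assembly factor BCCIP were higher in FOXK1 pools (0.29 and 0.43, adjusted p = 0.0477 and 0.0428). The globin HBG2 was at 22382 ± 647 FPKM in FOXK1 pools and 13121 ± 536 in SCR pools (SD, n = 2 each, 0.77, limma adjusted p = 0.0183). The 12 K562 markers summed to 24382 to 25170 FPKM in FOXK1 pools, 21873 to 24880 in FOXK2 pools and 14664 to 15429 in SCR pools. VIM, CNBP, BCCIP and HBG2 kept their calls in FOXK1 pools in 10, 8, 9 and 10 of 17 alternatives, and VIM in FOXK2 pools in 10 of 16. Leaving out 1 of the 4 pools of a comparison leaves 1 pool in a group, so those fits cannot decide whether these calls hold. The part of the globins in the values of the family was not tested.

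Sequence features were set beside the changes in the clones as a description over the members, which share libraries and normalization. The GC content of the principal protein-coding transcript in GENCODE 29 had Pearson's r of -0.21 and Spearman's rho of -0.27 with the log2 fold change over 80 members. For the length of the pyrimidine run, the longest over a gene's listed starts, they were -0.09 and -0.11 over 64 members. Small nucleolar RNA genes, which often sit in introns of this family, lie inside 9 of the 23 members called lower, among them RPSA, inside 3 of the 4 called higher, and inside 16 of the 53 not called. The median run was 12 bases in members called lower, 9 in those called higher and 10 in the rest.

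The spread within groups sets what these libraries can show. The SD of a member was, in the median over 80 members, 2.18% of its mean in mutant ASXL1 knockout clones, 2.65% in parental clones, 5.51% in FOXK2 pools, 2.78% in FOXK1 pools and 2.38% in SCR pools. RPL13 had the largest in each group but the mutant ASXL1 knockout clones, with 18.6% in parental clones, 24.2% in FOXK2 pools, 33.5% in FOXK1 pools and 22.3% in SCR pools. In mutant ASXL1 knockout clones RPS26 had the largest, 10.8%, with RPL13 at 10.4%. In FOXK2 pools, pool 2 stood above pool 1 in the family's sum, 234043 against 214431 FPKM, and this gap enters each comparison of that group.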

How the data were processed

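Total RNA of K562 cells was made into 12 libraries with a TruSeq RNA kit and sequenced in pairs on an Illumina HiSeq, per the labels' protocols; strand setting and depth are not given in the sources used here. The authors deposited FPKM per gene and library in 3 full tables, 1 for each comparison, and SCR values are the same in each table that holds them. Per the submitters' processing notes, TopHat, Bowtie, RSEM, Cufflinks and edgeR were named with GRCh38.p10, without roles. The deposited FPKM lie on a grid of 2 decimals times 1 factor per library (99.995% or more of values under 1000 FPKM, tolerance 0.00055), so counts could not be recovered, and no count test and no interval for counting error is given. The authors' deposited tables also hold a log2 fold change, a linear fold and an adjusted p-value per gene, whose test is not given in the sources used here. No column of per-sample values was left out.

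A gene entered a test when the number of libraries with 1 FPKM or more reached the size of the smaller group. Tests were run on log2(FPKM + 1) with limma 3.58.1 (trended variance, R 4.3.3) in a fit for each comparison, FOXK2 against FOXK1 in a joint fit of the 6 pools. Fold changes on this scale understate changes of low genes. P-values were adjusted by Benjamini-Hochberg over all genes tested, and calls needed an adjusted p under 0.05. The fit was also run on values simulated from its own fitted variances, which cannot show whether calls on these FPKM hold. Python 3.11.15, numpy 2.4.6, pandas 2.3.3, scipy 1.17.1 and matplotlib 3.10.9 were used for the rest. Gene positions came from GENCODE 29, promoters from RefSeq on GRCh38.p14.

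Members and gene lists were chosen with earlier results of these data known. The text names, for each comparison, up to 6 called members per direction and subunit with the smallest adjusted p, the members with the extreme log2 fold changes, the 5 most abundant members, those under the filter, the copies with their namesakes, and up to 3 called genes per list. Members and list genes named beyond this were chosen after their values were seen. A few genes that this rule names are not reported here. Groups came from the sample labels. In the tables the mutant ASXL1 knockout and SCR columns have names other than the labels give. They were assigned from the contrast that the table headers and titles name, with replicate numbers as in the columns. Equal replicate numbers did not pair libraries (correlation of deviations from -0.103 to 0.054). Alternatives were other pseudocounts, filters, scalings, variance models, a replicate block, members summed with their pseudogenes, and leaving out each library in turn. Added after seeing the data were the removal of the library factor, crossed replicate numbers, the family without RPL13, and sums without each library in turn.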

Additional observations from a re-analysis of the deposited data

How the results depend on the processing

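In mutant ASXL1 knockout against parental clones, ribosomal protein genes called lower, 23 as reported, numbered 8 with no filter on low FPKM, 11 with no variance trend, 12 with the library factor removed, 13 with median-ratio scaling, 3 with equal sums and 12 to 22 when each library was left out. Genes called higher, 4 as reported, numbered 0 with no filter and with no variance trend, 20 with equal sums and 1 to 4 when each library was left out. Of all genes tested, 3039 were called as reported, 1964 of them lower. All genes called lower numbered 1225 with no filter, 1659 with no variance trend, 1251 with the library factor removed and 1380 with median-ratio scaling. They numbered 840 with equal sums and 849 to 1757 when each library was left out. The median log2 fold change of the ribosomal protein genes, -0.07 as reported, was -0.00415 with median-ratio scaling, -0.02761 with upper-quartile scaling, 0.01745 with the library factor removed, 0.09054 with equal sums and -0.07956 to -0.06265 when each library was left out. Scaling to equal sums reversed RPL27A (0.0327), RPL29 (0.0178), RPL7A (0.0257), RPS14 (0.0275), RPS21 (0.0112) and BTF3 (0.0151), and called RPL22 higher (0.129). The cause was not tested. Without a filter the adjustment covers more genes and the variance trend is fitted to more low ones, and the part of either was not tested.

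Equal replicate numbers showed no pairing. With a replicate block 13 members were lower and 1 higher in mutant ASXL1 knockout clones, and 0 were higher in FOXK1 pools. Of all genes tested, 1824 and 37 were then called in these 2 comparisons. With the replicate numbers of the SCR pools crossed, 34 genes were called in FOXK1 pools, beside 250 as reported, and 0 members.

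In FOXK1 against SCR pools, members called higher, 1 as reported, were 0 with no filter and with no variance trend. Leaving out a library there leaves 1 pool in a group, so those fits cannot decide a call. The median was -0.01666 with equal sums. In FOXK2 against SCR pools 1 member, RPS26, was called higher with median-ratio scaling, upper-quartile scaling, equal sums, a joint fit of the 6 pools and the library factor removed, and 1 lower with equal sums. Its median ran from -0.05892 to 0.04858 when each library was left out. Without RPL13 the difference in the ratio of large to small subunit FPKM was -0.01224 between FOXK2 and SCR pools and -0.03021 between FOXK1 and SCR pools, and the difference in the share was -0.3981 percentage points between FOXK1 and SCR pools. Without the 5 highest members the ratio differed by 0.01479 between mutant ASXL1 knockout and parental clones, by -0.05401 between FOXK2 and SCR pools and by -0.00445 between FOXK2 and FOXK1 pools.

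Depth is not known from these values, and 2 pools a group limit what adjusted p-values can reach.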
